A study of Mus musculus with 8 samples.

Results

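The multi-tRNA synthetase complex genes examined here were 10 protein-coding genes, *Eprs*, *Iars*, *Lars*, *Mars*, *Qars*, *Rars*, *Kars*, *Dars*, *Aimp1* and *Aimp2*. The rule lists them by name and uses no measured value, although the list was drawn up with earlier results of these data known. Their data are the crosslinking and immunoprecipitation (CLIP) peaks of MBD5 and MBD6 whose midpoint lay within one of these genes on the same strand. These were 69 of 29555 peaks in 4 libraries. The cells were mouse embryonic stem cells (mES cells) given as wild type in the labels, and they stably overexpressed the human coding sequence of MBD5 or of MBD6 with a 3XFlag tag from a construct selected with hygromycin. They were grown in medium with serum, leukaemia inhibitory factor and the kinase inhibitors CHIR99021 and PD0325901, and no age, treatment or time point separates the groups. The series holds 8 samples in 4 groups of 2, namely Flag-MBD5 CLIP, Flag-MBD6 CLIP and an input for each. The inputs were not analysed here as samples of their own. The characteristics of the CLIP libraries and the study's methods name a Flag antibody, whereas an MBD6 antibody is written in the labels' extraction protocol.

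Aminoacyl-tRNA synthetases load each tRNA with its amino acid before translation. In animal cells several of the cytoplasmic synthetases are held in a single large particle, the multi-tRNA synthetase complex, by the scaffold proteins AIMP1, AIMP2 and AIMP3 (the last encoded by *Eef1e1*), while the remaining synthetases work outside it. EPRS carries the glutamyl and prolyl activities in 1 polypeptide, and the other enzymes of the complex load isoleucine (IARS), leucine (LARS), methionine (MARS), glutamine (QARS), arginine (RARS), lysine (KARS) and aspartate (DARS). MBD5 and MBD6 belong to the methyl-CpG-binding domain family of proteins and associate with the PR-DUB complex, which removes ubiquitin from histone H2A. The study asked which RNAs they bind.

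Peaks were present in 8 of the 10 genes, and they were concentrated in *Eprs* and *Kars*. Among all annotated protein-coding genes, 19.4% held a peak in any library. A region is a stretch of overlapping peaks that both libraries of 1 protein share. MBD6 had 18 regions in 6 of the 10 genes (*Eprs*, *Kars*, *Qars*, *Iars*, *Dars* and *Aimp1*), where 13.8% of all protein-coding genes held one. MBD5 had 9 regions in 3 of the 10 genes (*Eprs*, *Kars* and *Aimp1*), where 7.80% of all protein-coding genes held one. *Mars* and the scaffold gene *Aimp2* had no peak in any library, which says that none passed the authors' threshold at this depth. Besides *Eprs*, *Kars* and the scaffold genes, placed with their results, the genes lie at chr13:49682100-49734267 (*Iars*, plus strand), chr18:42202298-42262194 (*Lars*, minus strand), chr10:127296221-127311786 (*Mars*, minus strand), chr9:108507706-108515941 (*Qars*, plus strand), chr11:35808381-35834506 (*Rars*, minus strand) and chr1:128363707-128417368 (*Dars*, minus strand) in mm10. The peak lists hold no measure of how abundant each mRNA was, and its part in these counts was not tested.

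The *Iars* region needs a separate count. It lay at chr13:49684348-49684527 (mm10, plus strand) and overlapped by 86 bp the small nucleolar RNA gene *Gm25394* at chr13:49684301-49684433, which lies on the same strand within *Iars*. Reads of the host transcript and of this RNA cannot be told apart there. An alternative left out the peaks that start only in exons of transcripts not annotated as protein-coding. Under it, 5 of the 10 genes held an MBD6 region, against 13.3% of all protein-coding genes. At equal numbers of peaks per library MBD6 had 7 regions in 2 of the 10 genes, against 9.47% of all protein-coding genes. With a fold enrichment of at least 10 it had 8 regions in 3 genes, against 9.52%, and MBD5 had 5 regions in 2 genes, against 4.66%.

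In all, 5362 and 5388 peaks came from MBD5 and 9218 and 9587 from MBD6, at an estimated 478796 to 1111748 reads. MBD6 had 2.14 times the estimated reads and 1.75 times the peaks of MBD5, so the protein and the depth cannot be told apart in any difference between them. Within each protein the libraries differed by less than sampling noise (chi-square per degree of freedom 0.496 for MBD5 and 0.414 for MBD6). Nothing in the labels says that they came from separate cultures. Each protein was therefore counted as 1 sample, no test was made between the proteins, and the intervals given are 95% intervals for counting error only. Of 10 markers of pluripotent cells 9 held a peak (*Lin28a* did not), and of 6 markers of fibroblasts, the cells commonly used as feeders, 0 did. Among all protein-coding genes 19.4% held a peak. *Klf4* had only 1 peak. Of the 10 markers, 6 held an MBD6 region and 3 an MBD5 region, against 13.8% and 7.80% of all protein-coding genes.

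**Figure D1:**
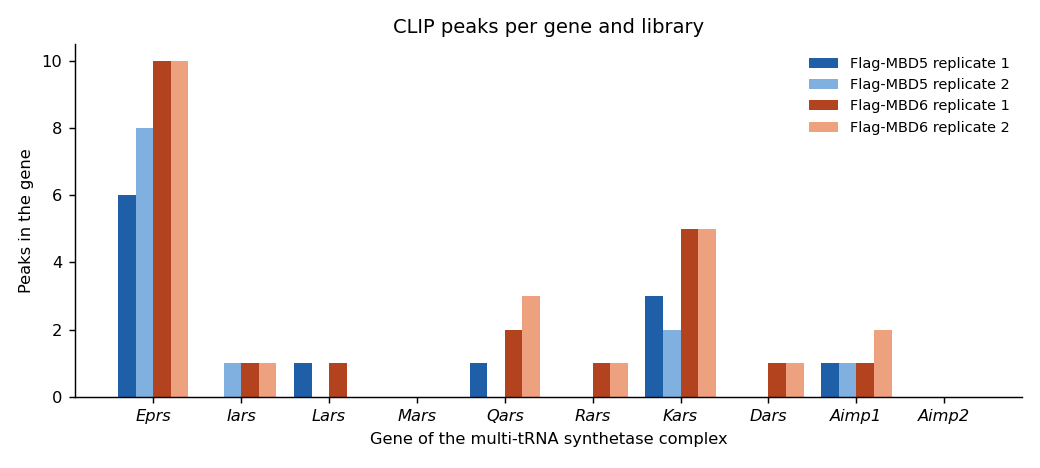
Number of CLIP peaks (vertical axis) in each gene of the complex (horizontal axis), with 1 bar for each of the 4 libraries. *Eprs* holds 6 to 10 peaks per library and *Kars* 2 to 5, and no bar stands at *Mars* or *Aimp2*.

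Overlapping peaks of the 4 libraries were merged into sites, which gave 30 sites in the 8 genes. Of these, 7 (23.3%) had a peak in all 4 libraries, against 29.5% of all 12074 sites. Of the 7 sites, 5 lay in *Eprs* and 1 each in *Kars* and *Aimp1*. Thus 3 of the 10 genes held such a site, against 7.35% of all protein-coding genes. The RNA at these 7 sites is shown first, because the comparison of MBD5 with MBD6 rests on them. *Kars* site 5 is added, chosen after its values were seen, as the only site of the complex genes with a peak in both MBD5 libraries and in no MBD6 library. Each line gives the gene, the number of the site counted from the start of the gene, and 30 bases in the direction of transcription from the GENCODE transcript. Peaks of the libraries that form a site need not start at the same base, and the 5′ end of a site is here the start of the peak that most libraries share or, where they are tied, that of the peak highest in depth-scaled reads. The capital letter is the base just before this 5′ end, at which RNase T1, which cuts RNA after G, should leave a G, and the lower-case letters are the 29 bases from it.
Eprs site 1: Gacactcctgcagaacagatgaaggcggaa
Eprs site 5: Caaagactacaagaaaaccaccaagatcac
Eprs site 6: Gatgggcacacaaaggaaatgccaacatcc
Eprs site 9: Gctactggggcagaagacaaagataaaaag
Eprs site 11: Gaaggaagactgaaaaggagaagtttgcag
Kars site 2: Gctgaagaggcgtctgaaagctgagaagaa
Kars site 5: Gaaatttatcgtccgctctaagatcatcac
Aimp1 site 2: Gatcaaagcgggagaagaaaagaaggtgaa

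In mm10 coordinates, the *Eprs* stretches lie on the plus strand at chr1:185379671-185379700, chr1:185397111-185397140, chr1:185399268-185399297, chr1:185407578-185407607 and chr1:185414397-185414426, in exons 8, 15, 17, 20 and 26 of 32. The *Kars* stretches lie on the minus strand at chr8:112005756-112005785 and chr8:112001524-112001553, in exons 2 and 6 of 14. The *Aimp1* stretch lies on the minus strand at chr3:132673985-132674014, in exon 4 of 7. All 8 stretches are coding sequence. In 7 of the 8 the capital letter is G, and *Eprs* site 5 has C there.

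*Eprs* encodes the bifunctional glutamyl-prolyl-tRNA synthetase and had the longest coding sequence of the 10 genes, 4539 nt in 32 exons (chr1:185363044-185428360, plus strand). It held 6 and 8 peaks in the MBD5 libraries and 10 in each MBD6 library, together 34 of the 69 peaks (49.3%), although it made up 18.8% of the coding sequence of the 10 genes. It accounted for 6 of the 9 MBD5 regions and 8 of the 18 MBD6 regions. Of the 3029 genes with an MBD6 region, 99 (3.27%) had at least as many as *Eprs*, and the median gene had 1. Per length *Eprs* stood nearer to the rest, with 1.76 MBD6 regions per kb of coding sequence against a median of 0.903 and a 90th percentile of 2.6 among genes with a region.

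The 12 *Eprs* sites were spread along the coding sequence. Their 5′ ends ran from codon 293 to codon 1341 of 1512. Site 1, at codon 293, was the highest, with 31 and 32 reads at the summit in the MBD5 libraries and 62 and 60 in the MBD6 libraries. Scaled to 1000000 estimated reads (rpm) these were 64.7 and 64 rpm for MBD5 and 63 and 54 rpm for MBD6, so the MBD6 values lay below the MBD5 values by a small margin. The fold enrichment over the local background, which the authors' files give for each peak, was 12.3 and 17.8 for MBD5 and 31.8 and 23.1 for MBD6. That order is the reverse of the depth-scaled reads, and the local background at this site stood at 5.39 and 2.75 times the lowest rate of the library for MBD5, against 1.61 and 2.38 times for MBD6. By mean rpm, 22.7% of the 3566 sites found in all 4 libraries were at or above it.

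Site 6 of *Eprs*, at codon 704, had 62.7 and 50 rpm for MBD5 and 46.8 and 37.8 for MBD6, each at the lowest background rate of its library. Both MBD5 values exceeded both MBD6 values. Site 9, at codon 955, had 35.5 and 38 rpm for MBD5 and 31.5 and 35.1 for MBD6, so that the closest values of the proteins nearly met. Site 5, at codon 599, was the lowest of the shared *Eprs* sites and the only one at which the proteins overlapped, with 27.2 and 18 rpm for MBD5 and 21.3 and 16.2 for MBD6. Site 11, at codon 1208, had 25.1 and 32 for MBD5 and 20.3 and 23.4 for MBD6, and the groups did not overlap. The other 7 *Eprs* sites lacked a peak in at least 1 library, and their summits stayed between 9.15 and 29.2 rpm where a peak was called.

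*Kars* encodes lysyl-tRNA synthetase, which is made in a cytoplasmic and a mitochondrial form from the same gene. It was the second richest gene of the complex, with 3 and 2 peaks for MBD5 and 5 and 5 for MBD6 in a coding sequence of 1788 nt (chr8:111993443-112011323, minus strand). Its 5 MBD6 regions came to 2.8 per kb of coding sequence, the highest value of the 10 genes and above the 90th percentile of 2.6. Of the 3029 genes with an MBD6 region, 10.3% had at least as many.

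Site 2 of *Kars*, at codon 22 of 595, showed the largest difference between the proteins among the 7 shared sites. It had 24 and 27 summit reads for MBD5 and 21 and 21 for MBD6, or 50.1 and 54 rpm against 21.3 and 18.9. The MBD5 values were more than 2-fold above the MBD6 values. The log2 ratio of MBD6 to MBD5 was −1.37 (95% counting interval −2.31 to −0.52, not adjusted for the 7 sites), and 1.88% of all 3566 shared sites had a lower one. The local background at this site was raised in every library, at 4.65 and 7.92 times the lowest rate for MBD5 and 6.52 and 1.83 times for MBD6, and its part in the difference was not tested.

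The other *Kars* sites differed in which libraries held them. Site 5, at codon 241, had 12 and 14 reads in the MBD5 libraries (25.1 and 28 rpm) and no MBD6 peak, where the same level would correspond to 27.8 reads at the depth of MBD6. Sites with both MBD5 libraries and no MBD6 library made up 1.28% of all 12074 sites. Its local background was also raised, 4.65 and 6.33 times the lowest rate. Sites 1, 3 and 4, at codons 11, 97 and 179, had peaks in both MBD6 libraries and in no MBD5 library, with 8.99 to 19.3 rpm. Sites 1 and 2 lay close together in the mRNA, at coding nucleotides 32 and 64 in exons 1 and 2. Site 6, at codon 573 in the last exon, had 22 reads in MBD5 replicate 1, no peak in MBD5 replicate 2, and 27 and 28 reads for MBD6.

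**Figure D2:**
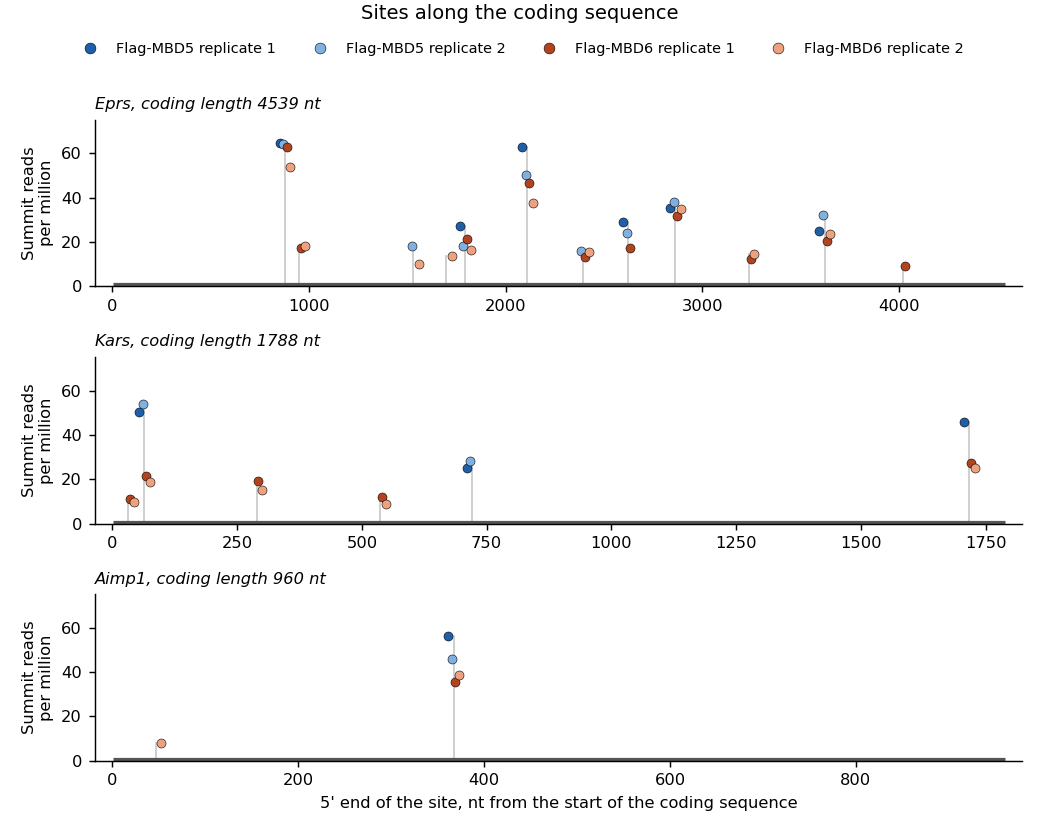
Summit reads per 1000000 estimated reads (rpm, vertical axis) at each site of *Eprs*, *Kars* and *Aimp1*, placed at its 5′ end in nucleotides from the start of the coding sequence (horizontal axis), with 1 point for each library that had a peak. Points of a site are set slightly apart so that they can be seen, and grey lines mark the position. The *Eprs* sites spread from nucleotide 878 to 4022, whereas at *Kars* site 2 (nucleotide 64) both MBD5 points stand above both MBD6 points.

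*Aimp1* encodes a scaffold protein of the complex that is also known as a secreted cytokine precursor. It held 1 and 1 peaks for MBD5 and 1 and 2 for MBD6 in a coding sequence of 960 nt (chr3:132660499-132684370, minus strand). Its site 2, at codon 123 of 319, had 27 and 23 summit reads for MBD5 and 35 and 43 for MBD6, or 56.4 and 46 rpm against 35.6 and 38.7. Both MBD5 values lay above both MBD6 values, but the counting interval of the log2 ratio included 0 (−1.22 to 0.33). The fold enrichment was 19 to 27.6 in all 4 libraries, each at the lowest background rate of its library. Site 1, with 9 reads in MBD6 replicate 2 alone, is uncertain, because the 30 bases from its 5′ end also occur in the processed pseudogene *Gm8863*. The other scaffold gene in the set, *Aimp2*, had a coding sequence of similar length, 963 nt (chr5:143902704-143909847, minus strand), and no peak. *Eef1e1*, which encodes the remaining scaffold protein, had none either.

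The remaining synthetase genes of the complex held few peaks, and no site of theirs was found in all 4 libraries. *Qars*, for glutaminyl-tRNA synthetase, had 1 and 0 peaks for MBD5 and 2 and 3 for MBD6, and its leading site (chr9:108510292-108510452, plus strand, codon 192 of 775) had 7 reads in MBD5 replicate 1 and 17 and 15 in the MBD6 libraries. *Dars*, for aspartyl-tRNA synthetase, had 1 site (chr1:128388998-128389147, minus strand, codon 159 of 501), with 10 and 9 reads for MBD6 and no MBD5 peak. *Rars*, for arginyl-tRNA synthetase, had 1 peak in each MBD6 library, but at 2 different sites, of 12 and 15 reads, and so no region. *Lars*, for leucyl-tRNA synthetase, had 1 peak of 7 reads in MBD5 replicate 1 and 1 of 8 reads in MBD6 replicate 1, again at different sites. *Iars*, for isoleucyl-tRNA synthetase, had within its own coding sequence only a peak of 8 reads in MBD5 replicate 2. Its coding sequence (3789 nt) and that of *Lars* (3537 nt) were the next longest after *Eprs*, so that the number of regions did not follow coding length among the 10 genes.

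The leading site of a gene is the one with the highest mean rpm. For *Qars*, *Rars* and *Dars* its RNA is shown in the same way, for comparison with the shared sites, at chr9:108510292-108510321 (plus strand, exon 7 of 24), chr11:35815663-35815692 (minus strand, exon 12 of 15) and chr1:128389119-128389148 (minus strand, exon 6 of 16).
Qars site 1: Caaaggcacggctggaagaaacagaccgga
Rars site 1: Gaagaagggctgaaacggtccatggacaag
Dars site 1: Gccattcggcctgaagtggaaggagaagag

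The capital letter is G in *Rars* and *Dars* and C in *Qars*. These stretches held 23 (*Qars*), 21 (*Rars*) and 21 (*Dars*) purines in the first 30 nt from the 5′ end.

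**Figure D3:**
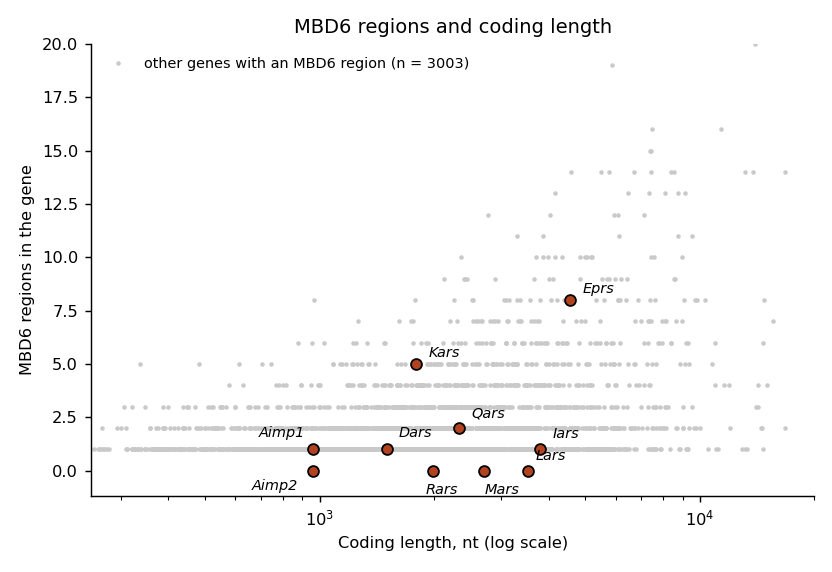
Number of MBD6 regions (vertical axis) against coding length in nucleotides (horizontal axis, log scale) for the 10 genes of the complex (large points, named) and the 3003 other genes with an MBD6 region and an annotated coding length (grey), 31 of which lie outside the plotted range. *Eprs* (8) and *Kars* (5) stand above *Iars*, *Lars* and *Mars*, which have longer coding sequences than *Kars* and 1 or 0 regions; the 1 region of *Iars* overlaps a small nucleolar RNA gene.

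The other synthetase genes were described in the same way. Of the 12 genes of cytoplasmic synthetases that work outside the complex, 8 held an MBD6 region and 3 an MBD5 region. In the complex 6 and 3 of the 10 genes did. Of all protein-coding genes, 13.8% held an MBD6 region and 7.80% an MBD5 region. The 12 genes had 13 MBD6 regions in 24741 nt of coding sequence (0.525 per kb). The complex had 18 in 24102 nt (0.747 per kb). For MBD5 the density was 0.202 per kb in the 12 genes, against 0.373 per kb in the complex. Over all protein-coding genes pooled, the values were 0.19 per kb for MBD6 and 0.0998 per kb for MBD5. *Aars*, for alanyl-tRNA synthetase, was the richest of the 12, with 3 and 5 peaks for MBD5, 4 and 7 for MBD6, and 4 MBD6 regions, fewer than *Eprs* and *Kars*. *Nars* and *Yars*, for asparaginyl- and tyrosyl-tRNA synthetase, followed with 2 MBD6 regions each. *Farsa*, *Farsb*, *Sars* and *Wars* had no peak. Of 17 genes of mitochondrial synthetases, 2 held any peak (*Iars2* and *Lars2*), against 19.4% of all protein-coding genes. A region of either protein was held by 1 of the 17 (*Lars2*), or 0.0307 regions per kb, against the shares of 13.8% and 7.80% given above. Without *Eprs* the other 9 genes of the complex had 10 MBD6 regions and 3 MBD5 regions in 19563 nt of coding sequence. The 12 genes outside the complex had 13 and 5 in 24741 nt. Against all 12 of these genes the higher density of the complex was therefore not seen without *Eprs*. Only the complex lost its richest gene here. The 12 genes kept *Aars*, with 4 MBD6 and 3 MBD5 regions in 2907 nt of coding sequence. Densities without both genes were not compared.

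MBD6 had 22 and 23 peaks in the complex genes and MBD5 had 12 and 12, a ratio of 1.88 (95% counting interval 0.931 to 3.78), close to the ratio of 1.75 over all peaks and below the ratio of estimated reads of 2.14. When each library was held to its 5362 best peaks, the ratio was 0.792 (0.338 to 1.85). Among the 9 MBD5 regions, 7 were shared with MBD6 (77.8%, Wilson interval 45.3 to 93.7), where 90.0% of all MBD5 regions did. Among the 18 MBD6 regions, 7 were shared with MBD5 (38.9%, 20.3 to 61.4), where 47.7% of all MBD6 regions did. Both intervals include the value over all regions. Without Flag-MBD5 replicate 2, a peak in replicate 1 alone counted as an MBD5 region, and 5 rather than 3 of the genes held one. The share of all protein-coding genes under this looser rule was not computed.

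Of the 30 sites, 15 had no MBD5 peak. Of these 15, 7 had a peak in 1 MBD6 library (23.3% of the 30 sites, against 24.7% of all 12074 sites). The other 8 had peaks in both MBD6 libraries (26.7%, against 20.6%). Scaled to the depth of the MBD5 libraries, the MBD6 summits of the 15 sites would have 3.74 to 8.64 reads. The smallest MBD5 peak anywhere had 5, and the median summit was 16 in each MBD5 library. Of the 15 sites, 4 fell below the smallest number and 11 reached it, all of them below the median. Reaching the smallest number does not mean that a peak would be called. The part of depth in the absence of an MBD5 peak was not tested. Of the 3 sites with no MBD6 peak, the 2 in *Iars* and *Lars* rested on a single MBD5 library with 8 and 7 reads. These 2 were 6.67% of the 30 sites, against 6.05% of all sites with the same pattern.

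At the 7 shared sites, summit rpm were lower for MBD6 than for MBD5, with a median log2 ratio of −0.38 and a range of −1.37 to −0.14. Over all 3566 shared sites the median was −0.34 (10th to 90th percentile −1.0 to 0.40), and 2585 of them were below 0, so that a ratio below 0 was common to sites of all genes. A shared site must have a peak in the MBD5 libraries, which have fewer reads. The smallest summit called was 5 reads in each MBD5 library and 6 in each deeper MBD6 library. The choice of shared sites therefore tends to leave out sites with low MBD5 rpm. Its part in the ratios below 0 was not tested. The 5 *Eprs* sites had −0.14, −0.27, −0.41, −0.14 and −0.38, and *Aimp1* site 2 had −0.46. The counting intervals of these 6 sites included 0, the tightest being −1.16 to 0.29 for *Eprs* site 6 and −0.81 to 0.50 for *Eprs* site 1. Only that of *Kars* site 2 lay wholly below 0. Without the *Eprs* sites the median was −0.918, over the 2 sites of *Kars* and *Aimp1*, and without Flag-MBD5 replicate 1 it was −0.216. In level the 7 sites were ordinary, with a median of 36.1 rpm against 37.8 (10th to 90th percentile 21.2 to 95.1).

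**Figure D4:**
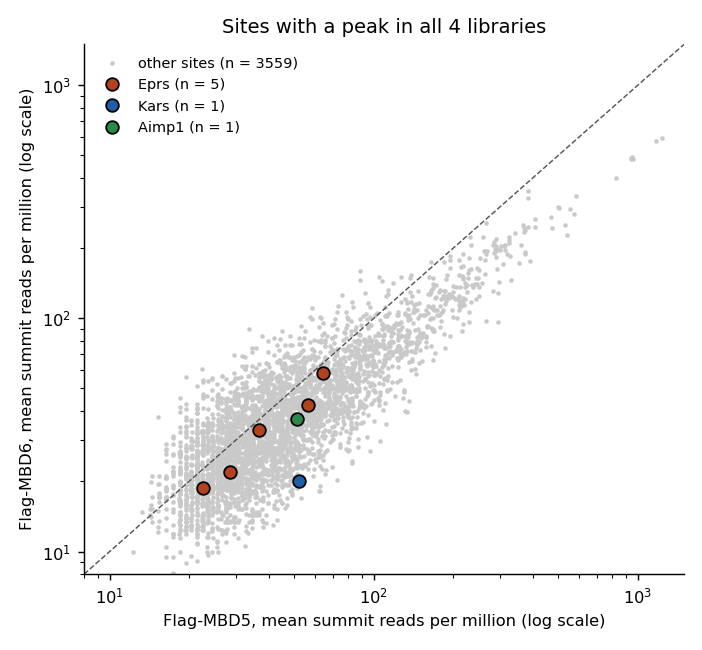
Mean summit rpm of the MBD6 libraries (vertical axis, log scale) against that of the MBD5 libraries (horizontal axis, log scale) at sites with a peak in all 4 libraries, for *Eprs* (n = 5), *Kars* (n = 1), *Aimp1* (n = 1) and 3559 other sites (grey); the dashed line marks equal values. All 7 points lie below the line, as do 2585 of all 3566 sites, and *Kars* site 2, with 52.1 for MBD5 and 20.1 for MBD6, lies farthest from it.

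The sites lay almost wholly in coding sequence. At a position 15 nt inside the 5′ end, 66 of the 69 peaks were in coding sequence (95.7%, Wilson interval 88 to 98.5), against 79% of all peaks. The exceptions were the 2 peaks over the small nucleolar RNA in *Iars* and 1 peak that reached into the first intron of *Kars*, and 0 peaks were in an untranslated region. The genes of the complex were all protein-coding. The peaks over all genes include 4087 that lay only in exons of transcripts not annotated as protein-coding. That class includes such isoforms of protein-coding genes, and its part in the difference was not tested. In 50 of 66 coding peaks G stood just before the 5′ end (75.8%, 64.2 to 84.5), against 77.1% of all such peaks. Peaks of a site in several libraries are not independent, so these intervals are too narrow. By site, 29 of 30 lay in coding sequence (96.7%, 83.3 to 99.4), against 78.9% of all sites. A G stood before 22 of 29 (75.9%, 57.9 to 87.8), against 78.7%. Peaks had a median width of 165 bp (150 to 309), against 166 bp over all peaks, which is near the 150 bp to which the authors extended reads and so does not resolve the bound nucleotides.

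The RNA from the 5′ end of these sites was rich in purines, as in the printed stretches of *Aimp1* site 2, *Eprs* site 11 and *Kars* site 2. In the first 30 nt of the 29 coding sites, A made up 34.5% and T 16.7% of the bases, against 27.9% and 23% in the whole coding sequence of the 10 genes. Over all sites A made up 37.8% and T 15.3%. Purines made up 61% at the 29 sites, against 54.2% in the whole coding sequence and 63.4% over all sites. Windows of 30 nt that follow a G in the coding sequences of the 10 genes had 27.9% A and 22.7% T, close to the whole coding sequence. The codons AAA and AAG, for lysine, and GAA and GAG, for glutamate, made up 68 of 272 in-frame codons in these stretches (25%, Wilson interval 20.2 to 30.5), against 16% in the windows that follow a G and 15.6% in the whole coding sequences. The 3 richest were *Aimp1* site 2 with 6 of 10 codons and 26 purines in 30 nt, *Eprs* site 11 with 5 of 9 codons and *Kars* site 2 with 5 of 10. The share was 24.1% in *Eprs* and 25.6% in the other genes. Over all 12074 sites it was 27.7%, within the interval for the complex genes. That interval counts neighbouring codons of a stretch as independent, so it may be too narrow.

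The sites varied in this measure. *Eprs* sites 4, 8 and 12, *Qars* site 3 and *Kars* site 3 held 0 of these codons. *Kars* site 5, printed above, held 2 of 10 codons and 13 purines of 30 nt. *Eprs* site 1, the highest in reads, held 3 of 9 codons and 19 purines, so that the order of the sites by reads was not that by codons.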

How the data were processed

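MBD5 and MBD6 CLIP-seq was made in mES cells, with 2 libraries per protein. The members and lists were chosen with earlier results of these data known. By the published methods the authors clipped, filtered and collapsed reads, removed ribosomal reads, aligned the rest without splicing to mm10 (Bowtie 1.0.0, reads with up to 10 matches kept), split strands (SAMtools 1.16.1) and called peaks on each strand and library with MACS2 (reads extended to 150 bp, up to 5 duplicates kept, genome size 130000000 bp, q under 0.01). The deposited values are a fold enrichment at the summit, which is a ratio to the local background, with −log10 p and −log10 q for each peak. The deposited score is 10 times −log10 q, and a further deposited column gives the summit position.

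From these, the summit reads and background rate of every peak were solved as the whole number and Poisson rate that give both the deposited fold and −log10 p (99.91% to 99.98% of peaks within the files' rounding). The lowest rate per strand gave the estimated number of reads, which is no count of sequenced fragments. Peaks were assigned by midpoint to GENCODE M21 genes on the same build, and an overlap of 1 bp counted as shared. Coding length and 30 nt windows came from GENCODE transcripts. Intervals of shares are Wilson, those of log2 ratios exact binomial on the mean reads of each protein. All 10 genes were described whatever their values, with their sites in all 4 libraries, the leading site of each, and the 3 other synthetase genes with the most MBD6 regions. Alternatives were a −log10 q of at least 5, a fold of at least 10, equal peak numbers, the summit or a position 15 nt inside the 5′ end for assignment, a reciprocal overlap of 50%, and each library left out, with 2 alternatives chosen after seeing the data. The scripts were tested on simulated data. Python 3.11.15, numpy 2.4.6 and scipy 1.17.1 were used.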

Additional observations from a re-analysis of the deposited data

How the results depend on the processing

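Of 79 values recomputed under the alternatives that keep all libraries, 65 stayed within their counting interval or within 1.5 times the count, 13 moved and 1 reversed. The median log2 ratio was judged by another band, −0.518 to −0.25. That is the median plus or minus the standard deviation of its medians over the pairs of an MBD5 and an MBD6 library. With a fold of at least 10 there were 5 MBD5 and 8 MBD6 regions, 3 genes with an MBD6 region, shared regions of 100% (MBD5) and 62.5% (MBD6), and 41.1% A. With 5362 peaks per library the peak ratio of MBD6 to MBD5 fell below 1, to 0.792 (0.338 to 1.85), which is the reversal, with 7 MBD6 regions in 2 genes, 85.7% of them shared, G before 85.7% of 5′ ends and 39.4% A. For the genes other than *Eprs*, chosen after seeing the data, 20% of MBD6 regions were shared and the median log2 ratio was −0.918. Leaving out peaks that start only in exons of transcripts not annotated as protein-coding, also chosen after seeing the data, left 17 MBD6 regions in 5 genes. The causes were not tested, beyond the fewer peaks or sites that each alternative holds.

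Leaving out each library in turn gave a peak ratio of 1.83 to 1.92, 9 to 12 MBD5 regions in 3 to 5 genes, 18 to 23 MBD6 regions in 6 to 8 genes, 7 to 9 sites in all remaining libraries, shared regions of 66.7% to 88.9% (MBD5) and 30.4% to 50% (MBD6), coding 94.7% to 97.9%, G 72.2% to 84.8%, A 36.2% to 38% and a median log2 ratio of −0.533 to −0.216. Where 1 library of a protein was left, any peak of that library counted as a region. The region counts of that protein could therefore stay or rise but not fall. No paired analysis was possible because each protein was counted as 1 sample, so that no test over libraries was made into which a block could enter. With 16 to 21 reads at the median summit, single sites have wide counting intervals.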
